A study of Mus musculus with 2 samples.

Results

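Type I interferon-stimulated genes are the genes that cells switch on after interferon-α or interferon-β binds its receptor, and 31 of them, taken by gene symbol from a fixed list, were followed here among the 32285 genes of the feature list. The study profiled single immune cells from the spleen of C57BL/6 mice, in 1 library from an RPA1 conditional knockout (CKO) and 1 library from a wild type (WT). RPA1 is the large subunit of the trimer that coats single-stranded DNA during replication and repair. The labels give neither the Cre driver, the deleted exons, the age of the mice nor how many mice were pooled. Each genotype is a single library, so genotypes were compared by levels and ratios with counting intervals and without any test.

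The pathway runs from interferon through the receptor chains IFNAR1 and IFNAR2 to the kinases JAK1 and TYK2, which activate transcription factors, STAT2 among them. Complexes of STAT2 with IRF9 bind the interferon-stimulated response element (ISRE), a repeated GAAA motif, while the GAS motif serves mainly interferon-γ. The products block viruses at many steps, and in resting spleen many of them are present at a low tonic level.

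RefSeq promoters (build GRCm38.p6, 250 bases before to 50 bases after the gene start) were found for 25 of the 31 genes. The ISRE core, spelled GAAA, any 2 bases and GAAA again, was searched on both strands and was present in 15 of these 25 genes (60%), against 3.44% of all 32851 promoters of the same length. The GAS motif TTCNNNGAA was present in 5 of the 25 genes (20%), against 8.30% of all promoters. A match is a description of the letters in this window and says nothing of binding. The windows below belong to genes whose values are described further on. The capitals mark a single core per window on the strand of the gene, where TTTC, any 2 bases and TTTC is the same core read on the other strand. Isg15 (chr4:156200877-156200906, minus strand), Oas1a (chr5:120907526-120907555, minus strand) and Bst2 (chr8:71537583-71537612, minus strand) carry the forward form. Rsad2 (chr12:26456553-26456582, minus strand), Stat2 (chr10:128270266-128270295, plus strand), Ifit1 (chr19:34640794-34640823, plus strand), Ifit3 (chr19:34583397-34583426, plus strand) and Ifit3b (chr19:34607793-34607822, plus strand) carry the reverse form.
Isg15: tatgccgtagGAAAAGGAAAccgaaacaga
Oas1a: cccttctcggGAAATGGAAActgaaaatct
Bst2: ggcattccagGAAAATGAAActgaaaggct
Rsad2: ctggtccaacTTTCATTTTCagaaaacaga
Stat2: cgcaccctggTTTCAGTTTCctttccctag
Ifit1: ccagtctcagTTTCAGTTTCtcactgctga
Ifit3: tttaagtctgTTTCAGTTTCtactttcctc
Ifit3b: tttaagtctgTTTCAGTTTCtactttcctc
The Ifit3 and Ifit3b windows are the same 30 bases. Oas1a and Bst2 hold 2 overlapping cores each, and Ifit1, Ifit3 and Ifit3b hold 2 separate cores each, so the windows do not mark all of them. In Isg15 the repeats run on further. There 3 overlapping cores stand in the promoter printed next, the 250 bases before the gene start (chr4:156200819-156201068, minus strand), with those cores in capitals.
Isg15 promoter: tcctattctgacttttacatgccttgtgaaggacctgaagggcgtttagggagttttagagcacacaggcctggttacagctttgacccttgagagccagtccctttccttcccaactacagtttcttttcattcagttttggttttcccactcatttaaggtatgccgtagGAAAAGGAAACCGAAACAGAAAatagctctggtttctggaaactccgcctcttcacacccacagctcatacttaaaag
The 31 genes lie on 13 chromosomes, and 4 of them, Ifit2, Ifit3, Ifit3b and Ifit1, stand in a row on chromosome 19 between 34550694 and 34650009. Some of them share 3′ sequence with a near copy, measured as the share of 50-base words in the last 500 bases of the transcripts. It was 56.1% for Oas1a with Oas1g, 42.6% for Phf11b with Phf11c and 14.9% for Ifit3 with Ifit3b, so counts of these genes are uncertain.

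After filtering, 11317 CKO and 11285 WT cells remained, with a median of 4499 UMIs in CKO and 5334 UMIs in WT. Cell classes were rebuilt from marker UMIs, so a difference from the study's own cell types can come from the rebuilt names. 36 cell barcodes occurred in both libraries. T cells were scarce in the CKO library, where CD4 T cells made up 2.43% of cells and CD8 T cells 0.601%, against 10.3% and 9.71% in the WT library. Rpa1 itself had 36.4 CPM, the gene's UMIs per 1000000 UMIs of the class, in CKO CD4 T cells and 47.3 CPM in WT CD4 T cells, a ratio of 0.769 (95% interval 0.576 to 1.01), and the ratio was 1.04 in CD8 T cells and 0.962 in follicular B cells. A 3′ tag outside the deleted part of the gene would not show the deletion, and the deleted part is not given. A gauge of free RNA differed between libraries, in that the T cell gene Trbc2 had a UMI in 1.25% of CKO and 6.78% of WT follicular B cells. All intervals below cover counting error only, and neither mouse-to-mouse nor library-to-library spread. The intervals of levels and ratios treat UMIs as independent, so they also leave out cell-to-cell spread. In this 3′ tag assay each molecule is counted once, so levels in CPM are not scaled by transcript length.

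The summed level of the 31 genes spread more widely over the classes than between the genotypes of any class. Of the 8 classes plotted, monocytes carried the most, with 6074 CPM (5926 to 6224) in the CKO and 5716 CPM (5522 to 5914) in the WT library. NK cells carried the least of the 8, with 1202 CPM (1167 to 1238) in CKO and 1323 CPM (1266 to 1382) in WT. Follicular B cells held 2194 CPM in CKO and 1975 CPM in WT, and CD4 T cells held 2615 CPM in CKO and 2502 CPM in WT. Regulatory T cells (Foxp3-positive, a class singled out after its values were seen) held 2935 CPM in CKO and 4658 CPM in WT, the widest difference of the 8 classes plotted.

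**Figure D1:**
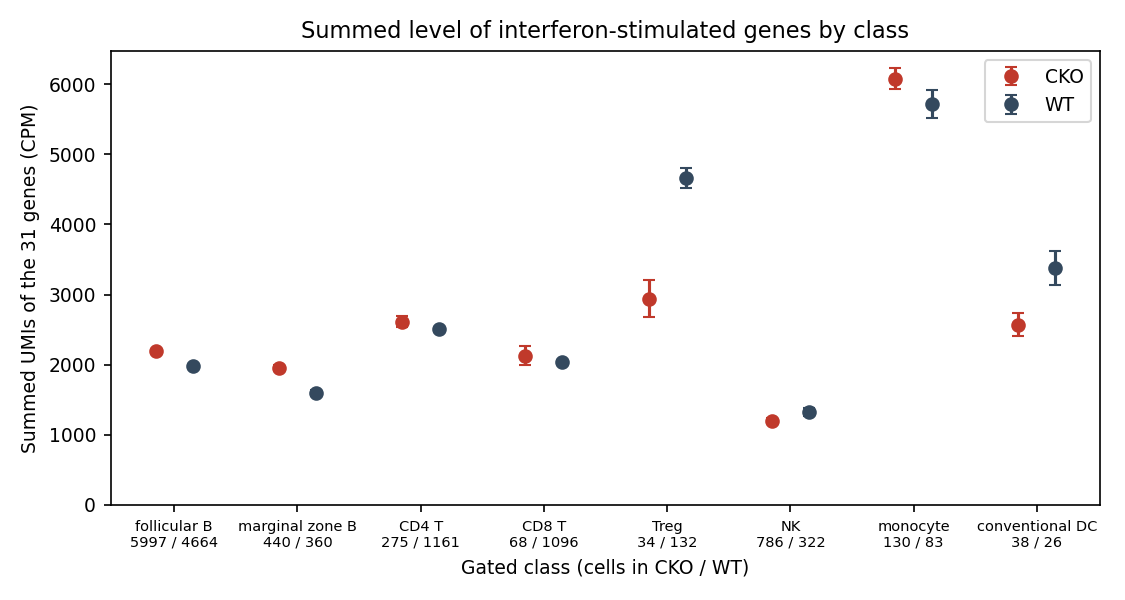
Summed UMIs of the 31 interferon-stimulated genes in each gated class (y axis, CPM, from 0), with CKO left of WT in each class and cell numbers under the class names; bars are exact Poisson 95% intervals. Monocytes lie highest in both libraries (6074 and 5716 CPM) and NK cells lowest (1202 and 1323 CPM), and the Treg points stand farthest apart (2935 and 4658 CPM).

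In follicular B cells a few genes made up most of the sum. Ifi27l2a, a small interferon-inducible membrane protein gene, gave 38.5% of the members' UMIs in CKO and 34.1% in WT follicular B cells. Samhd1, a triphosphohydrolase that cuts down the pool of deoxynucleotides, gave a further 18.8% in CKO and 21.2% in WT. The sums were spread over more genes in NK cells, where the 4 leading genes gave 44.0% in CKO and 44.3% in WT, and in conventional dendritic cells, where they gave 47.5% in CKO and 42.7% in WT. In NK cells Ifi27l2a was low, with 30.4 CPM in CKO and 21.7 CPM in WT, against 2674 CPM in CKO and 2283 CPM in WT monocytes. There Samhd1 led instead, with 213 CPM in CKO and 249.4 CPM in WT, followed by Trim30a, a tripartite-motif protein that dampens Toll-like receptor signalling in mice.

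Monocytes were the highest of the 8 classes for 19 of the 31 genes in the CKO library and for 17 in the WT library, 15 of them in both. Their counting interval lay wholly above that of the next class for 9 genes in CKO and 4 genes in WT. For the other genes that monocytes led, the order of the leading classes was not resolved by the counts. Oas3 and Samhd1 were among those resolved in both libraries. Conventional dendritic cells led for 6 genes in CKO and 11 in WT, and the interval stood clear of the next class for Isg15, Ifit3 and Herc6 in WT and for no gene in CKO.

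The genes of the ISG15 system were spread unevenly. Isg15, a ubiquitin-like modifier, had 122 CPM in CKO and 301 CPM in WT conventional dendritic cells, and only 28.4 CPM in CKO and 27.1 CPM in WT follicular B cells. Usp18, which removes ISG15 from proteins and also brakes the receptor, had 71.9 CPM in CKO and 76.4 CPM in WT dendritic cells, and 8.71 CPM in CKO and 3.14 CPM in WT marginal zone B cells. Herc6, the main ligase for ISG15 in mice, was flatter, between 31.6 CPM (follicular B) and 49.8 CPM (dendritic cells) in CKO and between 26.3 and 108 CPM in the same classes of WT.

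Both transcription factor genes were highest in myeloid cells and differed among the lymphocytes. Irf7, which amplifies interferon production, reached 174 CPM in CKO and 132 CPM in WT monocytes, against 20.1 CPM in CKO and 17.6 CPM in WT marginal zone B cells. Stat2, part of the ISRE-binding complex, had 49.8 CPM in CKO and 67.4 CPM in WT conventional dendritic cells, and 45.3 CPM in CKO and 51.9 CPM in WT monocytes. Among lymphocytes it was higher in follicular B cells (38.2 CPM in CKO, 36.0 CPM in WT) than in CD4 T cells (12.1 CPM in CKO, 18.6 CPM in WT). These intervals did not overlap between the B and T cell classes in either library.

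Products of oligoadenylate synthetase genes can start RNA cleavage by RNase L, while that of Oasl1 acts without that step. Among these genes Oas3 had 63.2 CPM in CKO and 46.7 CPM in WT monocytes. It had 3.76 CPM in CKO and 3.83 CPM in WT follicular B cells, and 13.3 CPM in CKO and 10.6 CPM in WT CD4 T cells. Oasl1 had the opposite order among these lymphocytes, with 15.2 CPM in CKO and 13.3 CPM in WT follicular B cells, against 9.09 CPM in CKO and 3.29 CPM in WT CD4 T cells, and the intervals of the classes overlapped in CKO but not in WT.

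The RNA sensor genes also split by class. Ddx58, which encodes RIG-I, stayed between 42.0 and 85.2 CPM over the 8 classes of CKO and between 48.5 and 90.8 CPM over those of WT. Ifih1, which encodes MDA5, had only 2.57 CPM in CKO and 2.92 CPM in WT follicular B cells, and 66.9 CPM in CKO and 96.9 CPM in WT monocytes. Slfn5, a Schlafen family gene, was high in monocytes (343 CPM in CKO, 410 CPM in WT) and in CD4 T cells (167 CPM in CKO, 121 CPM in WT), and low in NK cells (6.63 CPM in CKO, 10.5 CPM in WT).

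The remaining genes were either spread over all 8 classes or highest in myeloid cells. Parp14, an ADP-ribosyltransferase, lay between 81.8 and 179 CPM over the 8 classes of CKO and between 68.7 and 154 CPM over those of WT. Ifi35 varied little over the classes, between 57.6 and 78.0 CPM in CKO and between 50.8 and 95.2 CPM in WT. Slfn8 (39.6 to 93.3 CPM in CKO, 36.4 to 119 CPM in WT) and Xaf1, a partner of the apoptosis inhibitor XIAP (37.2 to 101 CPM in CKO, 35.85 to 132 CPM in WT), were highest in monocytes, and the lowest level was in marginal zone B cells, except for Xaf1 in WT, where it was in follicular B cells. Oasl2 was myeloid, with 98.0 CPM in CKO and 69.2 CPM in WT monocytes and 3.43 CPM in CKO and 5.02 CPM in WT marginal zone B cells. Dhx58, which encodes the RIG-I-like protein LGP2, had 33.0 CPM in CKO and 32.9 CPM in WT monocytes and 9.70 CPM in CKO and 5.81 CPM in WT CD4 T cells. It had 0 UMIs in the 34 CKO regulatory T cells. Oasl2 and Dhx58 thus differed more between monocytes and the marginal zone B or CD4 T cells named than between the genotypes within those classes. Rtp4, a receptor transporter protein, had 82.0 CPM in CKO and 83.1 CPM in WT monocytes and 21.15 CPM in CKO and 19.3 CPM in WT follicular B cells, and in conventional dendritic cells it had 63.6 CPM in CKO and 130.4 CPM in WT. Phf11b, a PHD finger protein, was highest in conventional dendritic cells, with 133 CPM in CKO and 130.4 CPM in WT. Ifi44 had fewer than 20 UMIs over both libraries in each of the 8 classes and was not compared.

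**Figure D2:**
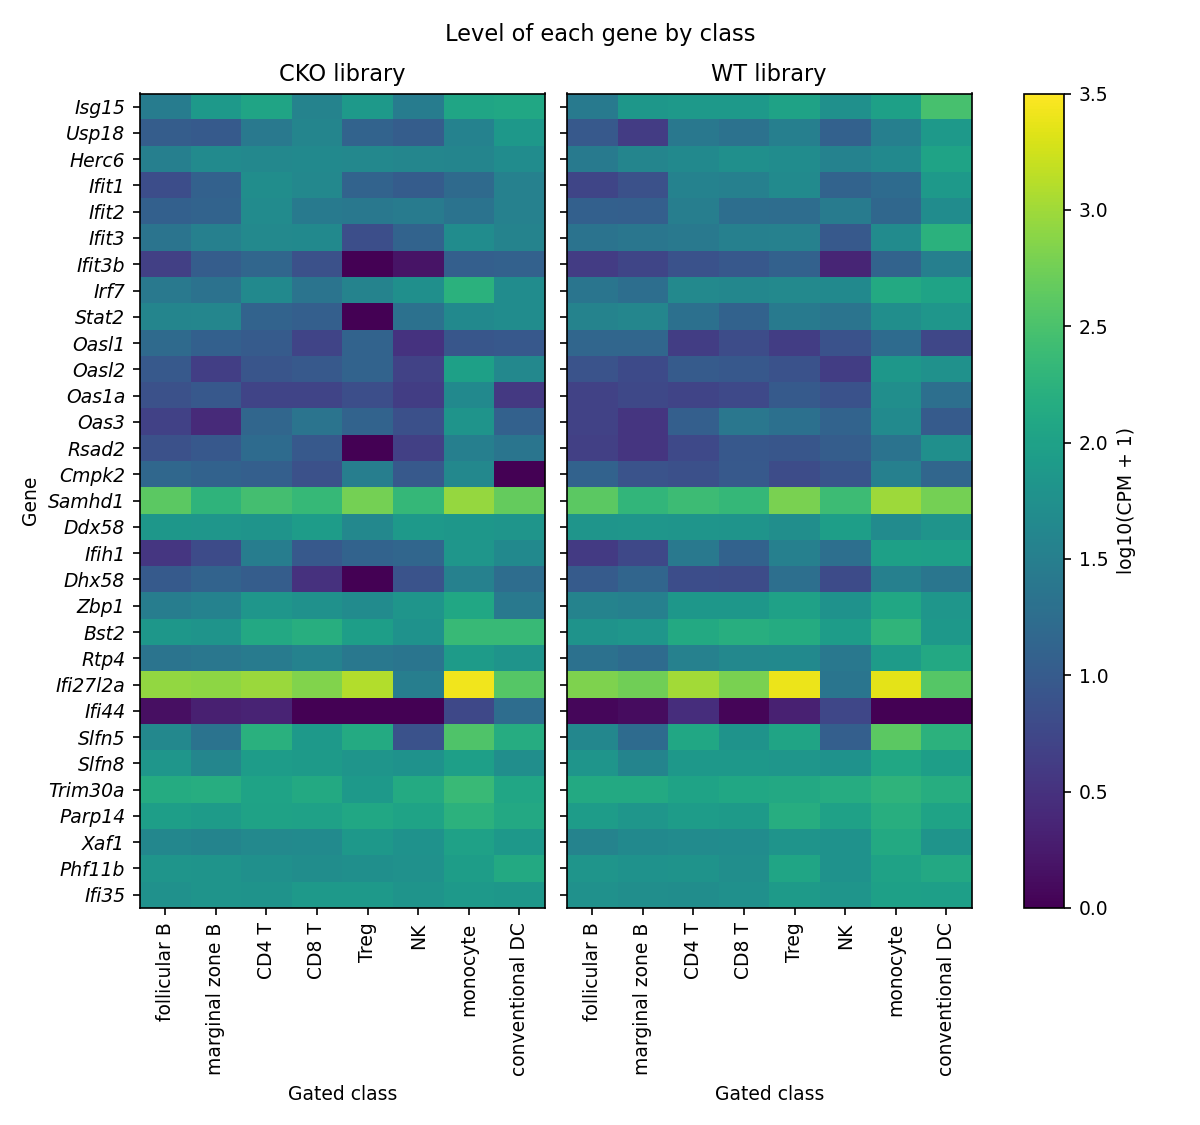
Level of each of the 31 genes (rows) in the 8 gated classes (columns), CKO library left and WT library right, as log10 of CPM plus 1 (colour). Ifi27l2a is the brightest row in all classes but NK and conventional DC, where Samhd1 exceeds it. The monocyte and conventional DC columns are brighter than the lymphocyte columns for genes such as Oasl2 and Ifih1. For Oas3 only the monocyte column stands out, and conventional DC lies below CD4 T and CD8 T cells.

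For the comparison of genotypes a gene was measured in a class when it had at least 20 UMIs over both libraries, and it was past the fold when its CPM was at least 1.5-fold higher or lower in CKO. Genotype and any other difference between these libraries cannot be told apart.

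In follicular B cells most genes were near equal between genotypes, with a slight upward lean in CKO. The summed level ratio was 1.11 (1.10 to 1.12), and 2 of 30 measured genes were past the fold upward, against 3.94% of all 12308 genes measured, and 0 downward, against 3.12%. The median log2 ratio was 0.10 for the measured members and 0.03 for all genes. Ifi27l2a had 844 CPM in CKO and 674 CPM in WT, a ratio of 1.25, while Samhd1 had 413 CPM in CKO and 420 CPM in WT. The mature B cell gene Ighd had 1016 CPM in CKO and 1258 CPM in WT within this gate, and its part in the result was not tested.

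Both genes past the fold in follicular B cells were rare there. Rsad2, which encodes the antiviral enzyme viperin, had 6.27 CPM in CKO and 3.58 CPM in WT, a ratio of 1.75 (1.35 to 2.28) from 195 and 87 UMIs. Oas1a had 6.33 CPM in CKO and 3.87 CPM in WT, a ratio of 1.64 (1.27 to 2.12). Both lost the 1.5-fold mark when cells were thinned to 1000 UMIs, at 1.32 for Rsad2 and 1.38 for Oas1a. The canonical genes were near level, with ratios of 1.05 for Isg15, 1.06 for Ifit3, 1.14 for Irf7, 1.06 for Stat2, 1.14 for Usp18 and 1.11 for Bst2, which encodes the virion-tethering protein tetherin.

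Marginal zone B cells leaned the same way. The summed ratio was 1.22 (1.18 to 1.27), and 6 of 29 measured genes were past the fold upward, against 6.88% of all genes, and 0 downward, against 3.40%. The median log2 ratio was 0.20, against 0.03 over all genes. Ifi27l2a had 805 CPM in CKO and 544 CPM in WT, a ratio of 1.48 (1.40 to 1.57), and its intervals did not overlap between libraries.

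The other shifts in marginal zone B cells rest on small counts. Rsad2 had 8.18 CPM in CKO and 2.51 CPM in WT (31 and 8 UMIs), a ratio of 3.26 (1.47 to 8.20). Usp18 had 33 UMIs in CKO and 10 in WT, a ratio of 2.78 (1.34 to 6.31). Of the remaining 4, Ifit3b had a ratio of 2.22, Ifit1 of 1.77, Oas1a of 1.74 and Cmpk2, a mitochondrial nucleotide kinase encoded beside Rsad2, of 1.68 (0.987 to 2.95). After thinning to 1000 UMIs, Ifit3b (2 and 2 UMIs) turned to 0.818 and Cmpk2 (3 and 5 UMIs) to 0.491. Ifit1 came to 1.35 without the 1% of cells richest in the 31 genes.

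B cells of neither the follicular nor the marginal zone gate (2321 CKO and 1550 WT cells) had a summed level of 2764 CPM in CKO and 2382 CPM in WT, a ratio of 1.16 (1.14 to 1.18). In them 3 of 30 measured genes, Oasl2 (1.57), Oas1a (1.64) and Usp18 (1.71), were past the fold upward, against 3.70% of all genes, and 0 downward, against 3.46%. Ifi27l2a had 1221 CPM in CKO and 967 CPM in WT in these cells.

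In CD4 T cells, part of the T cell compartment that the series title asks about, Ifit2, Ifit3, Ifit3b and Rsad2 were among 7 genes past the fold upward in CKO, while Ifi27l2a, the most abundant gene, was slightly lower. The summed ratio was 1.05 (1.01 to 1.08), and it turned to 0.971 after thinning to 1000 UMIs. Of 30 measured genes, 7 were past the fold upward, against 6.31% of all genes, and 1 downward, against 9.62%. The median log2 ratio was 0.20, against 0.01 over all genes. Ifi27l2a had 933 CPM in CKO and 1028 CPM in WT, a ratio of 0.907 (0.859 to 0.958).

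Ifit3, whose product binds IFIT1 in a complex on viral RNA in humans, had 43.6 CPM in CKO and 25.3 CPM in WT CD4 T cells, a ratio of 1.73 (1.30 to 2.27). Ifit2 had 47.3 CPM in CKO and 29.95 CPM in WT (1.58), and Ifit3b 13.3 CPM in CKO and 6.57 CPM in WT (2.03). Rsad2 had 15.8 CPM in CKO and 4.93 CPM in WT, a ratio of 3.20 (1.87 to 5.39). In CKO, however, the richest cell for each gene gave 65.4% of the Rsad2 UMIs and 20.8% of the Ifit3 UMIs. Under a stricter gate (at least 4 own-lineage UMIs and 0 of any other lineage) Rsad2 came to 1.23, Ifit3 to 1.20 and Ifit2 to 1.44. Without the 1% of cells richest in these genes Ifit3 came to 1.28, and Rsad2 to 2.74 from 8 and 14 UMIs.

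The remaining CD4 T cell genes past the fold upward were Oasl1, with a ratio of 2.77, and Dhx58 (1.67) and Cmpk2 (1.66). Usp18 (1.035), Irf7 (1.03) and Bst2 (0.963) were near level, and Rtp4 had a ratio of 0.820 (0.586 to 1.12). Ifit1, at 1.48 (1.15 to 1.90), stayed under the fold. So did Isg15, with 110 CPM in CKO and 75.4 CPM in WT, a ratio of 1.46 (1.23 to 1.73). Stat2 was the gene past the fold downward, with 12.1 CPM in CKO and 18.6 CPM in WT, a ratio of 0.653 (0.387 to 1.05). In naive CD4 T cells alone the ratio was 1.90 for Ifit3, 1.83 for Isg15 and 5.18 for Rsad2, given here without intervals. In the full gate the richest CKO cell for each gene gave 19.2% of the CKO UMIs of Isg15, 20.8% of Ifit3 and 65.4% of Rsad2. Whether single cells carry the naive ratios was not tested.

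CD8 T cells were few in CKO, 68 cells against 1096 in WT, and the counts resolve little. The summed ratio was 1.04 (0.978 to 1.11), with 1 of 30 measured genes past the fold upward, against 13.3% of all genes, and 3 downward, against 15.8%. Isg15 had 36.2 CPM in CKO and 73.9 CPM in WT (17 and 647 UMIs), a ratio of 0.490 (0.284 to 0.791). Irf7 had a ratio of 0.515 (0.245 to 0.959) and Dhx58 one of 0.389 (0.00964 to 2.27) from 1 UMI in CKO. Usp18 was the gene past the fold upward, with 38.4 CPM in CKO and 19.6 CPM in WT, a ratio of 1.95 (1.13 to 3.18). Among naive CD8 T cells alone 14 of 30 measured genes were past the fold downward, against 19.4% of all genes there, and 1 upward, against 14.2%, and the summed ratio was 0.871.

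NK cells, more numerous in CKO (786 cells) than in WT (322 cells), leaned downward. The summed ratio was 0.908 (0.862 to 0.958), with 0 of 27 measured genes past the fold upward, against 6.64% of all genes, and 5 downward, against 5.22%. The median log2 ratio was -0.12, and over all genes it was close to 0. Under the stricter gate the summed ratio came to 0.997.

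Isg15 was the clearest of the NK cell differences, with 28.2 CPM in CKO and 56.6 CPM in WT, a ratio of 0.498 (0.370 to 0.671). A single WT cell gave 19.8% of its WT UMIs, and without the richest 1% of cells the ratio was 0.632. Bst2 had 59.4 CPM in CKO and 85.5 CPM in WT, a ratio of 0.694 (0.556 to 0.870) that was not past the fold. The Rsad2 ratio of 0.364 (13 and 15 UMIs) turned to 2.51 (6 and 1 UMIs) without the richest 1% of cells. Oas1a (0.504), Oas3 (0.513) and Slfn5 (0.630) were also past the fold, with intervals that span 1.

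Monocytes, the class with the highest summed level of the 8, showed no gene past the fold. The summed ratio was 1.06 (1.02 to 1.11), and 0 of 28 measured genes were past the fold in either direction, against 11.6% of all genes upward and 8.41% downward. Ifi27l2a had 2674 CPM in CKO and 2283 CPM in WT, a ratio of 1.17 (1.10 to 1.25), and Irf7 a ratio of 1.32 (1.004 to 1.75). The gate mixes monocyte subsets, and Ly6c2, a marker of the classical subset, had 1034 CPM in CKO and 642 CPM in WT, whose part in the result was not tested. With a gate set by a 4-fold lead of the monocyte list, chosen after the data were seen, the summed ratio turned to 0.959. Of 30 genes measured under that gate 4 were past the fold downward, against 5.58% of all genes, and 0 upward, against 8.07%. Other settings went the other way. Under the stricter gate (at least 4 own-lineage UMIs and 0 of any other lineage) the summed ratio was 1.23, with 7 of 23 measured genes past the fold upward, against 14.0% of all genes, and 2 downward, against 10.9%. Under the stricter cell filter (500 to 5000 genes and under 5% mitochondrial UMIs) it was 1.205, with 6 of 28 upward, against 8.63%, and 0 downward, against 7.91%.

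The subsets of monocytes differed as well, but they cover only part of the gate's 130 CKO and 83 WT cells. Cells of the gate in neither subset were not summed apart. The subset ratios below therefore do not account for the ratio of the whole gate. Within the classical subset, chosen after its values were seen, 30 CKO cells held 4719 CPM and 18 WT cells 7328 CPM, a ratio of 0.644 (0.598 to 0.693). There 12 of 23 measured genes were past the fold downward, against 16.9% of all genes, and 0 upward, against 16.8%. Single cells weigh heavily in so small a group. The richest WT cell for each gene gave 61.9% of the WT UMIs of Ifit3, 55.3% of Irf7 and 38.5% of Slfn5, but 14.0% of Ifi27l2a. The non-classical subset, 36 CKO and 25 WT cells, held 3830 CPM in CKO and 3725 CPM in WT, a ratio of 1.03 (0.914 to 1.16). There 3 of 13 measured genes were past the fold upward, against 16.9% of all genes, and 3 downward, against 11.0%.

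Conventional dendritic cells were few (38 in CKO and 26 in WT), and many of their canonical genes were lower in CKO. The summed ratio was 0.761 (0.690 to 0.839), with 10 of 24 measured genes past the fold downward, against 12.8% of all genes, and 1 upward, against 13.2%. The median log2 ratio was -0.46, against 0.01 over all genes. Few of these genes could be measured under other settings, with 3 of 4 past the fold downward under the stricter gate, against 17.2% of all genes (13.7% upward), and 1 of 3 after thinning to 1000 UMIs, against 10.4% (14.5% upward). Ifit3 had 35.9 CPM in CKO and 171 CPM in WT (13 and 38 UMIs), a ratio of 0.210 (0.103 to 0.404). Isg15 had 122 CPM in CKO and 301 CPM in WT, a ratio of 0.404 (0.270 to 0.600), and these intervals did not overlap.

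Rtp4 (0.488), Irf7 (0.461) and Herc6 (0.461) were also lower in CKO dendritic cells. The richest CKO cell gave 53.9% of the CKO UMIs of Ifit3, and the richest WT cell gave 28.4% of the WT UMIs of Isg15. Thinned to 1000 UMIs, Irf7 (4 and 2 UMIs) turned to 1.37. Bst2 went against the rest, with 224 CPM in CKO and 71.9 CPM in WT, a ratio of 3.11 (1.81 to 5.70). It came to 1.03 under the gate set by a 4-fold lead, chosen after the data were seen. A single CKO cell gave 32.1% of the CKO UMIs of Bst2 in the main gate. Plasmacytoid dendritic cells carry much BST2 protein, and their defining gene Siglech had 1 UMI in CKO and 0 in WT within that gate. The gate itself allows at most 1 UMI of the plasmacytoid marker list, which holds Siglech. This count therefore cannot show whether such cells were present, and their part in the Bst2 ratio was not tested.

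Regulatory T cells had the lowest ratio of the 8 classes. There were 34 such cells in CKO and 132 in WT, and the summed ratio was 0.630 (0.573 to 0.692). Ifi27l2a carried most of it, with 1242 CPM in CKO and 2524 CPM in WT, a ratio of 0.492 (0.425 to 0.568) that stayed between 0.421 and 0.591 over the alternatives tried. Of 21 measured genes 11 were past the fold downward, against 23.0% of all genes, and 0 upward, against 14.4%. Among them is Stat2, with 0 UMIs in CKO and 23 in WT, which is at least 1.41-fold lower with a floor of 3 counts in the CKO class and so not past the fold by that bound. The median log2 ratio was -0.66, or -0.48 with Stat2 at that floor, against -0.05 over all genes. Trac, the T cell receptor α constant gene, had 468 CPM in CKO and 732 CPM in WT within this gate, and its part in the result was not tested.

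Zbp1, a sensor of Z-form nucleic acid, had a ratio of 0.477 (0.200 to 0.981) in regulatory T cells, and Phf11b one of 0.479 (0.213 to 0.946). Samhd1 was near level at 588 CPM in CKO and 623 CPM in WT. In the WT library regulatory T cells had the highest Ifi27l2a level of all 8 classes, 2524 CPM against 2283 CPM in monocytes, with intervals that did not overlap. In the CKO library their 1242 CPM was below the 2674 CPM of monocytes.

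**Figure D3:**
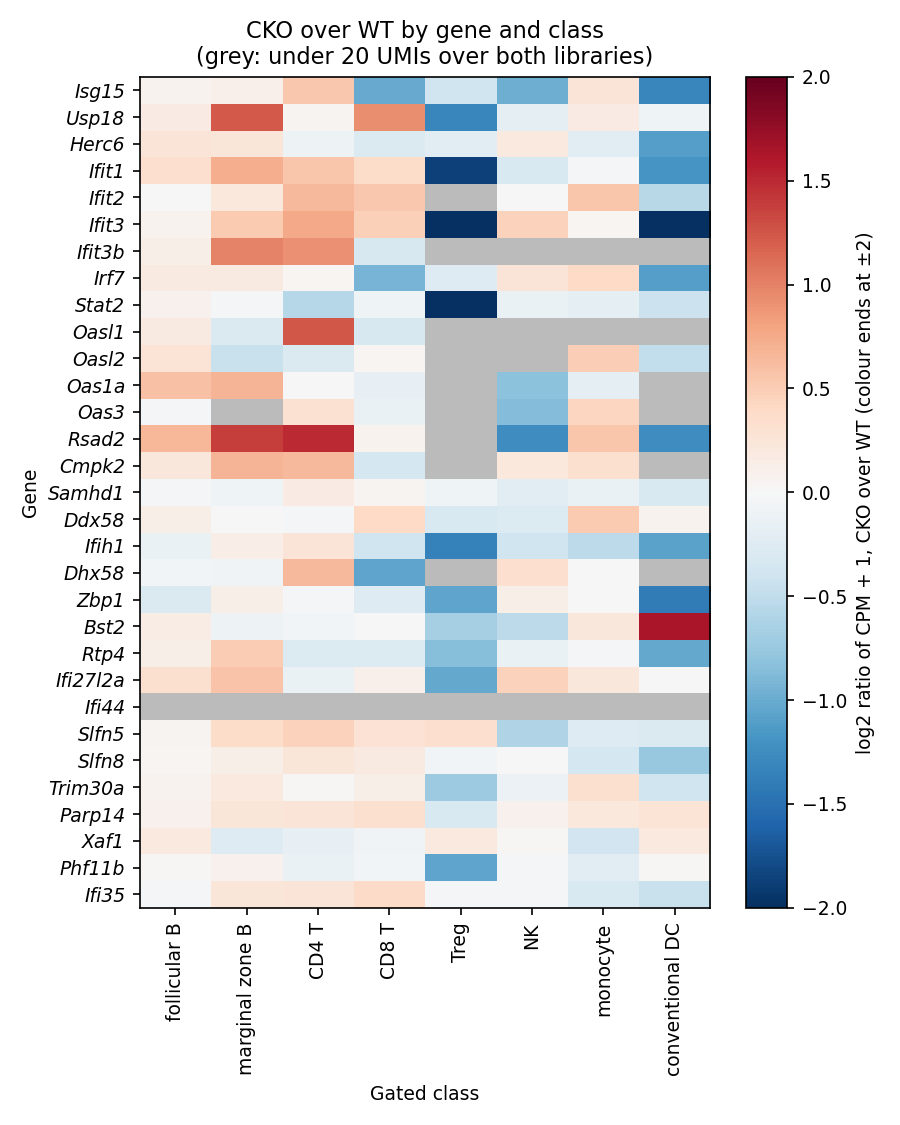
Log2 ratio of CPM plus 1, CKO over WT, for each gene (rows) in each gated class (columns); red is higher in CKO, blue lower, grey marks genes under 20 UMIs over both libraries. Red fields gather in the IFIT and Rsad2 rows of the marginal zone B and CD4 T columns, and the Treg and conventional DC columns are mostly blue, Bst2 in conventional DC excepted.

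The share of cells with UMIs in 3 or more of the 31 genes was counted after each cell was thinned to 1000 UMIs. In follicular B cells it was 19.4% (18.4 to 20.5) in CKO and 16.9% (15.8 to 18.0) in WT, but without thinning it was 77.8% in CKO and 78.8% in WT, so the order at this mark depends on depth. It depends on the mark too, since without thinning 15.9% (15.02 to 16.89) of CKO and 13.4% (12.5 to 14.4) of WT follicular B cells had UMIs in 8 or more of the genes. The share was 27.3% in CKO and 26.0% in WT CD4 T cells, and 10.5% in CKO and 10.4% in WT NK cells, with intervals that overlap. It was 56.0% in CKO and 50% in WT monocytes, and 34.2% in CKO and 50% in WT conventional dendritic cells. In regulatory T cells it was 26.5% (12.9 to 44.4) in CKO and 40.2% (31.7 to 49.0) in WT. Many cells lie near the mark of 3 genes, since 10.7% of CKO and 9.03% of WT follicular B cells had exactly 3 and 22.9% and 23.2% had exactly 2.

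**Figure D4:**
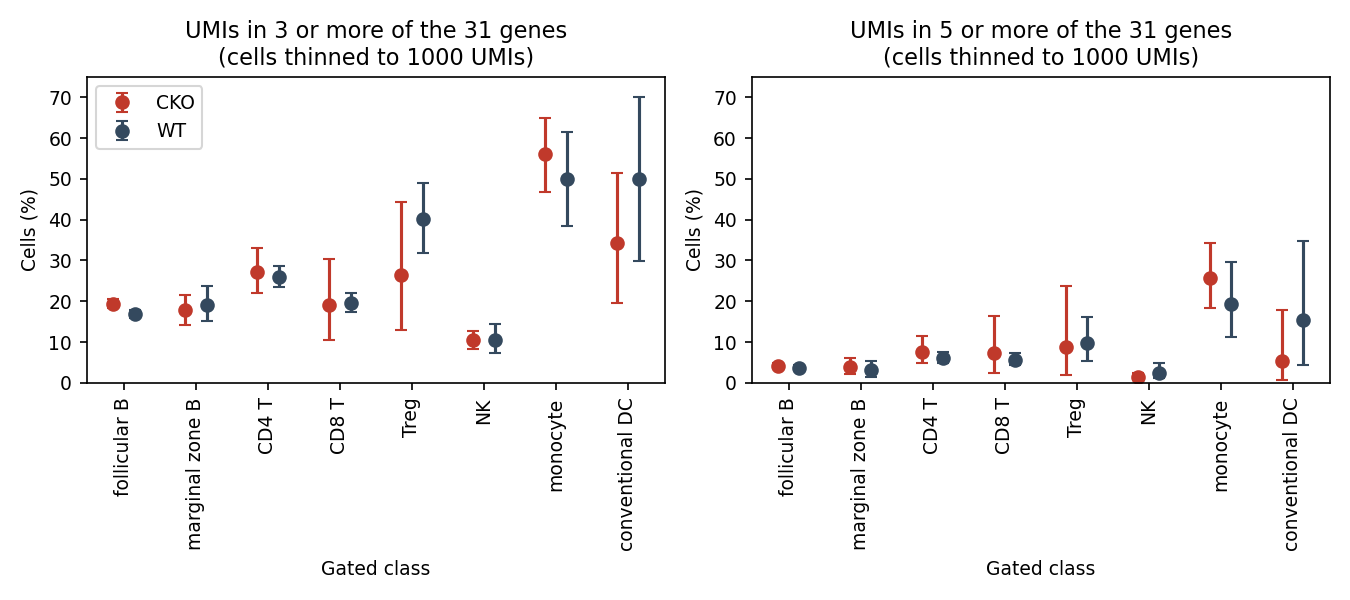
Share of cells (y axis, percent) with UMIs in 3 or more (left) and 5 or more (right) of the 31 genes after thinning each cell to 1000 UMIs, CKO left of WT in each gated class; bars are exact Clopper-Pearson 95% intervals. Monocytes have the highest shares for 3 or more genes in CKO (56.0%) and NK cells the lowest in both libraries (10.5% and 10.4%), and in the left panel the intervals of CKO and WT overlap in every class but follicular B.

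Within a class the members were high in the same cells. Follicular B cells were split within each library by whether they held a UMI of Ifit3, which 4.70% of CKO cells (282 of 5997) and 4.67% of WT cells (218 of 4664) did. Of the 29 other members measured, 28 in CKO and 29 in WT were at least 1.5-fold higher in Ifit3-positive cells, against 7.04% and 7.83% of all genes. The median ratio was 3.80 in CKO and 5.72 in WT, against 0.97 and 0.96 over all genes. Ifit3-positive cells were somewhat deeper, with a median of 5260 against 4292 UMIs in CKO and 4734 against 4550 UMIs in WT.

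The genes differed in how far they followed Ifit3. Ifit3b led with 75.8-fold in CKO and 61.4-fold in WT, but it shares sequence with Ifit3. Ifit1 followed with 36.9-fold in CKO and 38.5-fold in WT, and Rsad2 with 17.7-fold (13.3 to 23.7) in CKO and 35.6-fold (22.5 to 57.3) in WT. Usp18 came to 10.4-fold (8.18 to 13.1) in CKO and 18.7-fold (14.1 to 24.8) in WT, and Isg15 to 8.12-fold in CKO and 9.57-fold in WT. At the low end stood Samhd1, 1.32-fold in CKO and 1.61-fold in WT, and Stat2, 1.63-fold in CKO and 2.18-fold in WT. The intervals of Usp18 did not overlap between the libraries, and those of Rsad2 met over a narrow range.

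The ISRE core did not sort the members in one direction. In follicular B cells members with the core in the promoter had a median of 3.19-fold in CKO and 6.28-fold in WT in this split, and members with a promoter but no core 5.24-fold in CKO and 6.48-fold in WT. The ranges overlap widely, from 1.63 to 75.8 with the core and from 1.32 to 12.8 without it in CKO, and Ifit3b, Ifit1 and Rsad2 all carry the core. In other classes the median was higher with the core than without it in CKO CD4 T cells (4.31-fold and 2.995-fold), WT CD8 T cells (3.49-fold and 2.87-fold) and CKO NK cells (4.76-fold and 3.75-fold), and lower with it in WT CD4 T cells (3.08-fold and 3.40-fold) and WT marginal zone B cells (2.11-fold and 2.79-fold).

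Ifit3-positive cells made up 10.2% of CKO and 8.18% of WT CD4 T cells, 15% of CKO and 12.2% of WT marginal zone B cells, 2.67% of CKO NK cells and 20% of CKO monocytes. In these classes too, most other members were at least 1.5-fold higher in such cells, 23 of 24 measured in CKO CD4 T cells (background 11.1%) and 28 of 29 in WT CD4 T cells (background 9.34%). In marginal zone B cells it was 25 of 27 in CKO (background 8.20%) and 19 of 22 in WT (background 11.0%). It was 28 of 29 in WT CD8 T cells (background 7.28%), 23 of 24 in CKO NK cells (background 16.3%) and 26 of 26 in CKO monocytes (background 12.1%). The other pairs of class and library among the 8 classes had fewer than 20 Ifit3-positive cells. The split was not made in classes outside the 8. The background is the share of all genes measured in that split that were at least 1.5-fold higher.

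**Figure D5:**
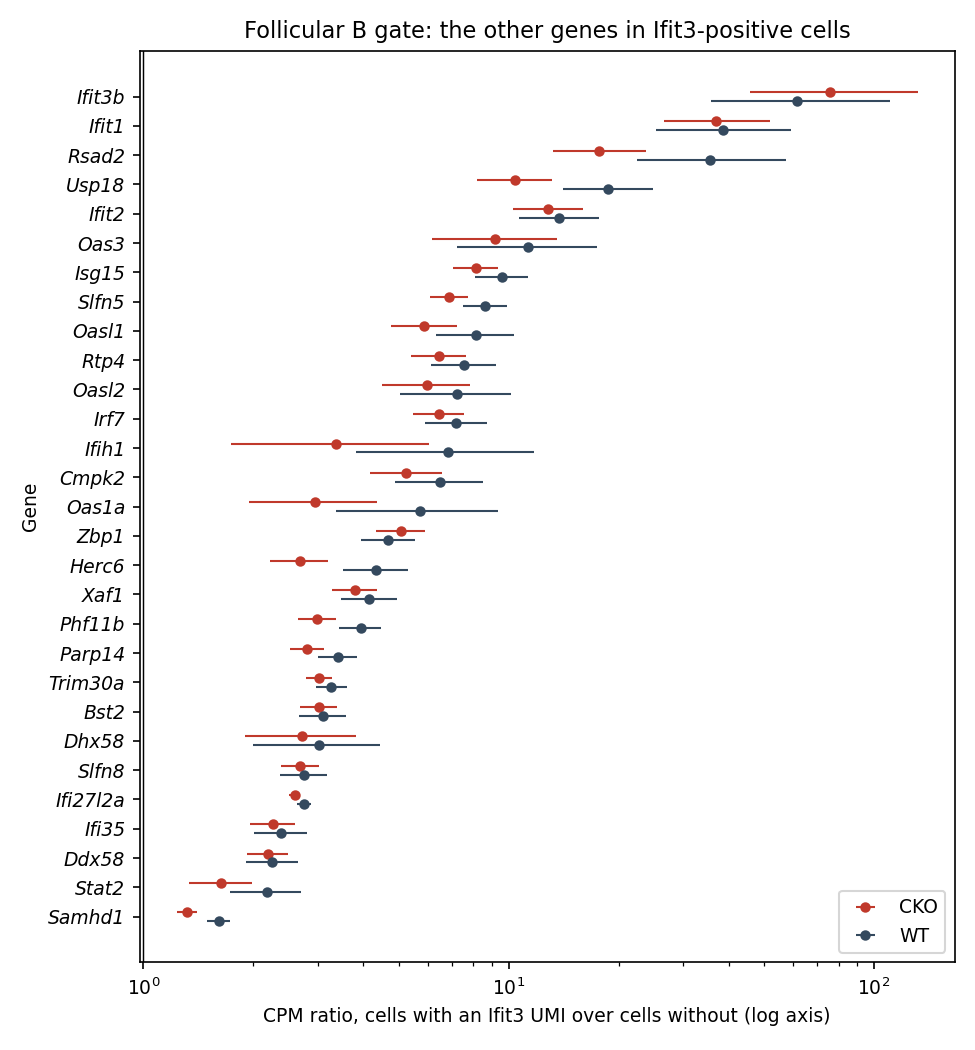
CPM ratio of each other gene between follicular B cells with and without an Ifit3 UMI (x axis, log scale; genes on the y axis, ordered by ratio), CKO in red above WT in dark blue for each gene; bars are exact conditional 95% intervals. Every point lies above 1, from 1.32 and 1.61 for Samhd1 to 75.8 and 61.4 for Ifit3b.

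The genes upstream of these targets were read from lists chosen with earlier results of these data known. None of 10 type I interferon ligand genes reached 20 UMIs over both libraries in any of the 8 classes, so the ligands could not be compared at this depth. The 9 genes of the receptor and signal relay had median log2 ratios close to 0 in follicular B cells (-0.01), CD4 T cells (-0.04), NK cells (-0.01) and monocytes (-0.03). In conventional dendritic cells 5 of these 9 genes were past the fold downward, against 12.8% of all genes, and none upward, against 13.2%, with a median of -0.61. Irf1, a factor induced by interferon-γ above all, had a ratio of 0.658 (0.616 to 0.702) in follicular B cells. Ifnar1 had a ratio of 1.34 (1.10 to 1.63) in CD4 T cells and 1.02 in follicular B cells.

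The 7 genes that brake the pathway had a median log2 ratio of -0.04 in follicular B and -0.09 in CD4 T cells. In follicular B cells 1 of 7 was past the fold downward, against 3.12% of all genes, and 0 upward, against 3.94%. In CD4 T cells 2 of 7 were past it upward, against 6.31%, and 0 downward, against 9.62%. Socs1, which blocks the JAK kinases, had a ratio of 0.718 (0.591 to 0.872) in follicular B cells and 1.51 (1.18 to 1.91) in CD4 T cells. Socs3 had 0.477 (0.335 to 0.675) and 1.66 (1.26 to 2.155) in the same classes. Of a further 32 interferon-stimulated genes outside the 31, 3 (Mx1, Mx2 and Oas1b) matched no entry of the feature list and at most 26 were measured in a class. Their median log2 ratios were 0.04 in follicular B, 0.15 in marginal zone B, 0.03 in CD4 T, -0.20 in regulatory T and -0.31 in conventional dendritic cells. In conventional dendritic cells 5 of 14 measured were past the fold downward and 0 upward, and in regulatory T cells 5 of 21 downward and 2 upward, read against the shares of all genes given above for those classes. Of those measured in CD4 T cells, 0 of 25 were past the fold upward, against 6.31% of all genes, and 2 downward, against 9.62%. Among the 31 genes 7 were past it upward in this class, and the difference between the lists was not tested.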

How the data were processed

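Per the file headers, the authors deposited count matrices from Cell Ranger 6.0.2, which hold a UMI count for each barcode and gene without normalization, while the submitters' processing notes name mm10, Cell Ranger 5.0.0 and Seurat 4.0.3. The CKO library held 12958 barcodes and 76910129 UMIs (median 4616), and the WT library 13291 barcodes and 84240951 UMIs (median 5355). Cells with 200 to 6000 genes and under 10% mitochondrial UMIs were kept. Scrublet (scanpy 1.11.5, expected rate 0.8% per 1000 cells) marked 9 CKO and 532 WT cells by its automatic threshold, so the cells above the expected quantile of the score were removed instead, 1293 (10.3%) in CKO and 1394 (11.0%) in WT.

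A cell entered a class with at least 2 UMIs of that lineage's markers and at most 1 of every other lineage list. B cells were then split by Fcer2a, Cr2, Cd1d1 and Cd9, and T cells by Cd4, Cd8a, Cd8b1, Foxp3 and Trdc. The gates left 9.19% of CKO and 14.9% of WT cells unclassed. They drop many myeloid cells that share transcripts, so the monocyte and dendritic classes are small.

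UMIs were summed per class and library and divided by the class total (CPM). CPM carries exact Poisson, shares exact Clopper-Pearson and CPM ratios exact conditional binomial 95% intervals. The ratio intervals were tested on simulated Poisson counts, which hold no cell-to-cell spread. Log2 ratios used a pseudocount of 1 CPM. Thinning drew 1000 UMIs per cell and left out shallower cells, at most 19 in a class and library. The 31 genes and all other lists were chosen with earlier results of these data known. Genes named per class were up to 5 per direction past 1.5-fold, ranked by the interval bound nearest 1, the 5 most abundant in WT CD4 T and follicular B cells, and Isg15, Ifit3, Irf7, Stat2, Usp18, Bst2 and Ifi27l2a; further names, regulatory T cells and classical monocytes were chosen after their values were seen. Promoters and transcripts came from RefSeq (GRCm38.p6) and GENCODE. The work used scipy 1.17.1 and numpy 2.4.6 with pandas 2.3.3, and matplotlib 3.10.9 for plots, in Python 3.11.15. Alternatives covered the cell filter, doublet removal, the gates, naive T cells only, the richest cells, scaling, thinning, the pseudocount, the count minimum and the 2 most abundant genes. Of the 9 genes of the receptor and signal relay list, 1 enters the list's counts and is not described singly.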

Additional observations from a re-analysis of the deposited data

Results flagged for a closer look

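The summed level of the 31 genes was higher in CKO than in WT in some classes and lower in others, with intervals on opposite sides of 1. The CKO over WT ratio was 1.111 in follicular B, 1.222 in marginal zone B, 1.045 in CD4 T cells and 1.063 in monocytes, and it was 0.9084 in NK cells, 0.7608 in conventional dendritic cells and 0.6301 in regulatory T cells. With 1 library per genotype the difference between classes was not tested. Ratios of CD4 T cells and monocytes changed direction under other settings.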

How the results depend on the processing

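No paired analysis was possible because each genotype has 1 library. Of the summed ratios and share ratios recomputed, 120 stayed within the counting interval, 17 moved outside it and 3 reversed, where a reversal was counted only for a value whose interval left out 1 in the main setting. By that rule the CD8 T sum (1.044, with an interval across 1) was not counted, though it came to below 1 in naive cells, after thinning and under the stricter gate (0.9901). The reversed ones were the CD4 T sum after thinning (0.9711), the monocyte sum under the gate set by a 4-fold lead, chosen after the data were seen (0.9592), and the follicular B share without thinning (0.9873). Under the stricter gate the sum came to 1.090 in follicular B, 0.9967 in NK, 1.227 in monocytes and 0.5391 in conventional dendritic cells, and under the stricter cell filter to 1.205 in monocytes. Thinning gave 1.081 in marginal zone B, 0.9459 in CD8 T and 1.116 in monocytes. Naive cells alone gave 1.167 in CD4 T and 0.8711 in CD8 T. In follicular B, leaving out the richest 1% of cells gave 1.124 and median-ratio scaling 1.084. Without the 2 most abundant genes the sum was 1.063 in follicular B, 1.121 in marginal zone B, 1.146 in CD4 T and 0.7307 in regulatory T cells. The NK share ratio with 5 or more genes was 0.5560. Rsad2 in NK (2.511), Ifit3b in marginal zone B (0.8182) and Irf7 in conventional dendritic cells (1.368) reversed on at most 6 UMIs a library. The count of genes past the fold moved by over 1.5 times in all classes but follicular B: in CD4 T it was 8, and 5 under the stricter gate and 4 after thinning; in CD8 T 4, and 7 to 15 under other settings; in NK 5, and 3 under the stricter gate and 8 with no minimum count; in monocytes 0, and up to 9 under the stricter gate; in conventional dendritic cells 11, and 3 under the stricter gate and 1 after thinning; in marginal zone B 6, and 2 after thinning; in regulatory T cells 11, and 2 after thinning and 19 with no minimum count. Counts per gene and class limit these ratios, and the causes of the changes were not tested.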

Other observations

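Plasma cells were few, 18 in CKO and 26 in WT, and held 1621 CPM in CKO and 1050 CPM in WT, a ratio of 1.54 (1.38 to 1.72). Isg15 had 255 CPM in CKO and 102 CPM in WT plasma cells, a ratio of 2.50 (1.82 to 3.46), but a single cell gave 88.7% of these UMIs in CKO and 85.5% in WT. Cells with both T and NK markers (95 in CKO, 143 in WT) had a summed ratio of 0.880 (0.816 to 0.948), and γδ T cells (55 in CKO, 16 in WT) one of 0.937 (0.798 to 1.11). Plasmacytoid dendritic cells, 8 in CKO and 12 in WT, held 6769 CPM in CKO and 7359 CPM in WT, with intervals that overlap. Neutrophils, erythroid cells and macrophages were too few in the gates to compare.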
